A study of Mus musculus with 30 samples.

Results

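NF-κB is a family of transcription factors that act as dimers. Cells hold the dimers inactive in the cytoplasm, bound to IκB proteins or to their own unprocessed precursors. Signals from receptors for TNF, interleukin 1, microbial products and antigen activate IκB kinases, the inhibitors are degraded, and the dimers enter the nucleus, where they drive genes for inflammation, cell adhesion and survival. In tumors the pathway can be active in melanoma cells, in infiltrating leukocytes and in endothelium.

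In all, 8 genes of this pathway were chosen by name. The rule uses no measured value, but earlier results of these data were known when it was written. They comprise the subunits Nfkb1, Nfkb2, Rel and Relb, the IκB-like coactivator Bcl3 and the known targets Birc3, Traf1 and Icam1. Of these 8 genes, 7 were matched to a row among the 39676 gene identifiers counted, and Nfkb2 was not analysed here. All 7 averaged 10 or more counts over the tumors, the minimum for testing, as did 15926 genes in all.

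The 30 libraries came from whole tumors, 10 of each of 3 types, taken on day 8 after subcutaneous injection of B16 melanoma cells into adult female C57BL/6 mice. Before injection the cells had been given retroviral vectors and sorted. B16-IFNA4 cells carried the interferon α4 gene, B16-IFNA9 cells the interferon α9 gene, and B16-GFP control cells the vector with the fluorescent reporter alone. All 3 lines, controls included, also carried herpes simplex virus glycoprotein B with a cyan fluorescent reporter and luciferase. The interferon was driven by the viral promoter in the tumor cells throughout growth, so these tumors model constant secretion from the tumor rather than a dose given at a set time, and each type rests on 1 sorted line. The tumors are labeled as biological replicates.

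Total counts ran from 14598517 to 19788383 per tumor (median 16712970.5). Ifna4 had 81 to 188 counts in each B16-IFNA4 tumor and 0 in each other tumor, and Ifna9 had 55 to 148 counts in each B16-IFNA9 tumor and 0 elsewhere, so the labels and the transgenes matched in all 30 tumors. A count of 0 allows up to 3 counts per tumor by counting error alone. B16-GFP tumor 7 stood apart from its type, with the lowest total count, the lowest scaling factor (0.768) and the lowest leukocyte marker level of all tumors. The main values it moves are given without it as well. The 3 melanocyte markers analysed here, Tyr, Tyrp1 and Mitf, were detected in every type (summed level at least 2157 CPM, counts scaled to a common library size) and were lower in both interferon types than in B16-GFP tumors.

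Promoter letters are shown for the 2 genes in which a searched motif was found, Rel and Icam1, since these windows show what a κB-type site next to a member looks like. RefSeq (GRCm38.p6) gave a promoter for 5 of the 7 genes: Rel, Bcl3, Birc3, Traf1 and Icam1. In the 250 bases before each start, 4 motifs were searched on both strands: the 10-letter κB consensus, GGAANTTCC, TTCNNNGAA and a repeat of GAAA with 2 bases of any kind between the copies. Capitals mark the matches. The windows are chr11:23771026-23771086 on the minus strand, bases -117 to -57 from the start of Rel, and chr9:21015762-21015931 on the plus strand, bases -178 to -9 from the start of Icam1.
Rel: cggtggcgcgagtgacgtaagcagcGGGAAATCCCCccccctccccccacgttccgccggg
Icam1: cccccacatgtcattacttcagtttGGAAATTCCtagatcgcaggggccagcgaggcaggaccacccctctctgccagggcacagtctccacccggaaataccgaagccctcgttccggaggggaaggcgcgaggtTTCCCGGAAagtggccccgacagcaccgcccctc
In Rel the capitals hold overlapping matches to the κB consensus that begin at bases -92 and -91. That consensus occurred in 7.251% of 32851 promoters of the same length. In Icam1 the first capitals, at base -153, match GGAANTTCC, a κB half-site pair that was searched after the promoter letters had been seen, and which occurred in 0.8128% of promoters. The second capitals, at base -42, match TTCNNNGAA, the letters that STAT dimers bind, which occurred in 7.02%. The GAAA repeat, the core of the interferon-stimulated response element, was found in 0 of the 5 windows and occurred in 2.977%. These are matches of letters and no binding was measured.

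The first question was whether these genes differed between interferon-secreting and control tumors. All 7 rose in B16-IFNA4 tumors, with log2 fold changes from 0.60 to 2.35, and 5 of 7 rose in B16-IFNA9 tumors, from 0.40 to 1.60. Traf1 rose most in both, and Relb and Bcl3 did not pass the test in B16-IFNA9 tumors. These counts stand against a broad background: 65.4% of all 15926 genes tested passed the same test in B16-IFNA4 against B16-GFP tumors, 31.3% by rising and 34.1% by falling, and 55.7% passed in B16-IFNA9 against B16-GFP tumors, 26.9% by rising and 28.9% by falling. The split depends on scaling: of the genes called in B16-IFNA9 against B16-GFP tumors 48.2% were higher with TMM and 58.3% with library totals, and in B16-IFNA4 tumors 47.8% and 53.2%. The median log2 fold change of the 7 genes was 1.17 in B16-IFNA4 and 0.81 in B16-IFNA9 tumors, beside 0.009 and -0.003 over all genes. Both comparisons used the same control tumors. Adjusted p-values here and below are from edgeR's quasi-likelihood test in a fit of all 30 tumors, with Benjamini-Hochberg adjustment over all genes tested, and levels are CPM scaled by TMM.

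**Figure D1:**
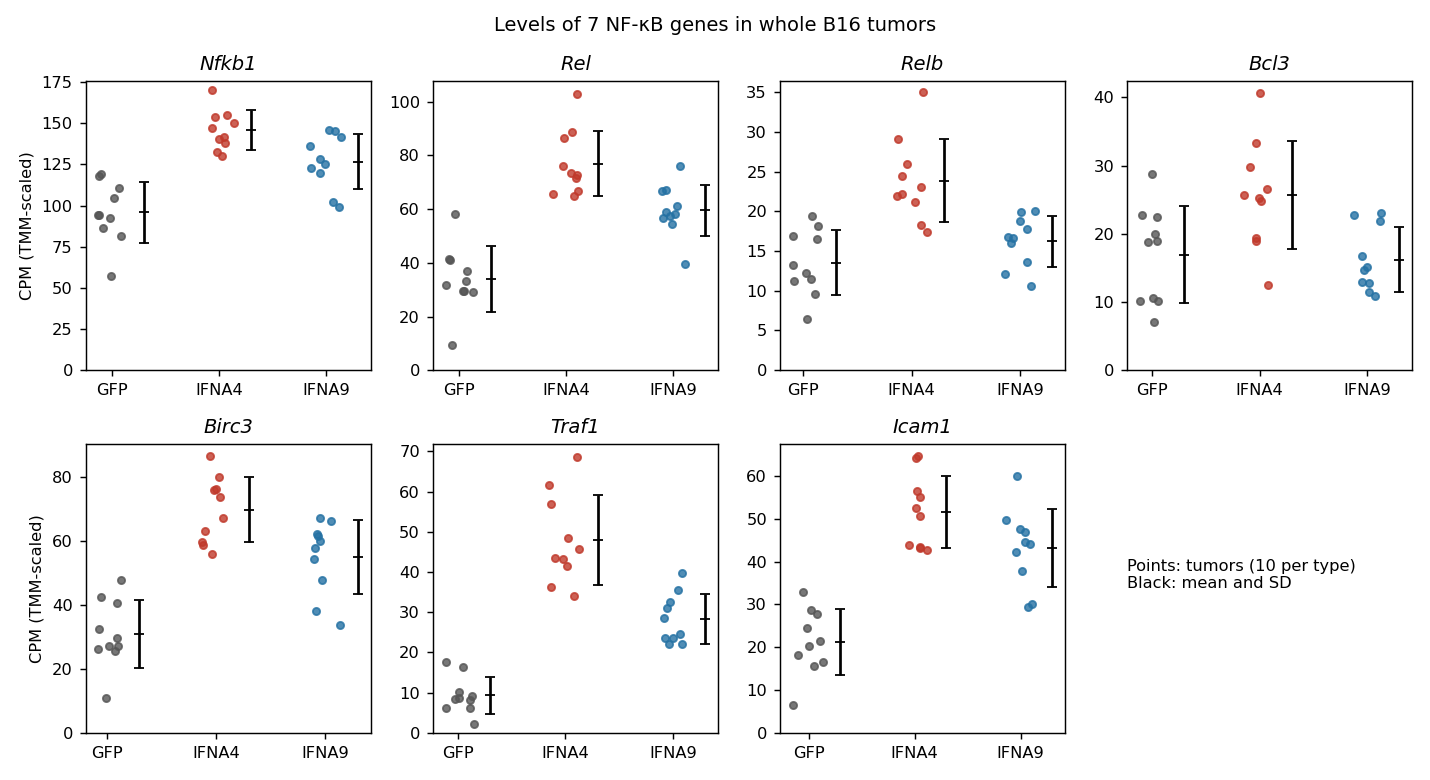
Levels of the 7 genes in CPM (vertical axes, starting at 0) in each of the 30 tumors, by tumor type, with the mean and SD in black. B16-IFNA4 tumors sit above all B16-GFP tumors for Nfkb1, Rel, Birc3, Traf1 and Icam1, and the types overlap for Relb and Bcl3.

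Nfkb1 (ENSMUSG00000028163.17, GRCm38 chr3:135584655-135691547, minus strand) encodes the precursor of the p50 subunit, which has no activation domain of its own. Its lowest, median and highest levels were 57.44, 94.23 and 119.2 CPM in B16-GFP, 129.9, 144.3 and 170.0 in B16-IFNA4, and 98.97, 126.9 and 145.6 in B16-IFNA9 tumors. All B16-IFNA4 tumors lay above all B16-GFP tumors, whereas B16-IFNA9 tumors overlapped both other types. The log2 fold change was 0.60 ± 0.10 (SE, n = 10 per type) in B16-IFNA4 (edgeR adjusted p = 3.65e-06) and 0.40 ± 0.10 in B16-IFNA9 tumors (edgeR adjusted p = 0.000884).

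Rel (ENSMUSG00000020275.9, chr11:23736847-23770970, minus strand), the gene with the κB match shown above, encodes c-Rel, a subunit used mainly by lymphocytes and myeloid cells. Its lowest, median and highest levels were 9.276, 32.42 and 57.99 CPM in B16-GFP, 64.97, 73.12 and 103.0 in B16-IFNA4, and 39.52, 58.4 and 75.94 in B16-IFNA9 tumors. Again no B16-IFNA4 tumor overlapped a B16-GFP tumor. Rel rose by a log2 fold change of 1.18 ± 0.17 in B16-IFNA4 (edgeR adjusted p = 7.52e-07) and 0.81 ± 0.17 in B16-IFNA9 tumors (edgeR adjusted p = 0.000202).

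Relb (ENSMUSG00000002983.17, chr7:19606217-19629438, minus strand) encodes RelB, the partner of p52 in the noncanonical branch of the pathway. Levels were 6.505, 12.75 and 19.4 CPM (lowest, median and highest) in B16-GFP, 17.39, 22.67 and 34.97 in B16-IFNA4, and 10.59, 16.65 and 20.08 in B16-IFNA9 tumors. The types overlapped in each comparison, and B16-IFNA9 tumors lay almost within the range of the controls. Relb rose in B16-IFNA4 tumors (log2 fold change 0.82 ± 0.16, edgeR adjusted p = 5.48e-05), and the difference in B16-IFNA9 tumors, 0.26 ± 0.16, did not pass (edgeR adjusted p = 0.162). It did pass, at 0.56 ± 0.12, with a GC covariate chosen after seeing the data (edgeR adjusted p = 0.00034).

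Bcl3 (ENSMUSG00000053175.17, chr7:19808462-19822770, minus strand) encodes a nuclear IκB-like protein that binds p50 and p52 homodimers at DNA. Levels were 7.046, 18.88 and 28.71 CPM (lowest, median and highest) in B16-GFP, 12.45, 25.55 and 40.73 in B16-IFNA4, and 10.82, 14.88 and 23.05 in B16-IFNA9 tumors. Its tumors overlapped in all comparisons, and 4 of the 10 B16-GFP tumors formed a low group apart from the other 6. Bcl3 rose in B16-IFNA4 tumors (0.60 ± 0.22, edgeR adjusted p = 0.0178), with no detectable difference in B16-IFNA9 tumors (-0.07 ± 0.22, edgeR adjusted p = 0.813). That last value was not stable, at 0.028 with scaling by library totals, 0.049 without B16-GFP tumor 9, 0.34 with a GC covariate and -0.82 with a leukocyte covariate, both described further on. Exons of Gm16175 overlap Bcl3 on the other strand, and exons of Gm47079 overlap Icam1. The strand setting of the counting is not given in the sources used here, so their reads may not have been kept apart.

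Birc3 (ENSMUSG00000032000.17, chr9:7848699-7873186, minus strand) encodes cIAP2, a ubiquitin ligase that protects cells from TNF-induced death. Its levels were 10.79, 28.46 and 48.0 CPM (lowest, median and highest) in B16-GFP, 56.02, 70.54 and 86.74 in B16-IFNA4, and 33.83, 59.04 and 67.32 in B16-IFNA9 tumors. B16-IFNA4 tumors did not overlap the controls and B16-IFNA9 tumors did. The log2 fold changes were 1.17 ± 0.17 (edgeR adjusted p = 5.62e-07) and 0.82 ± 0.17 (edgeR adjusted p = 0.000128).

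Traf1 (ENSMUSG00000026875.14, chr2:34941750-34961772, minus strand) encodes an adaptor of TNF receptors that is itself induced by NF-κB, mainly in lymphocytes and dendritic cells. It was the lowest of the 7 genes in B16-GFP tumors, with 2.23, 8.61 and 17.74 CPM (lowest, median and highest), against 34.02, 44.61 and 68.6 in B16-IFNA4 and 22.07, 26.69 and 39.74 in B16-IFNA9 tumors. Neither interferon type overlapped the controls. The log2 fold changes were 2.35 ± 0.22 (edgeR adjusted p = 2.02e-10) and 1.60 ± 0.22 (edgeR adjusted p = 5.17e-07).

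Icam1 (ENSMUSG00000037405.8, chr9:21015985-21028817, plus strand), whose promoter window above holds both a κB-type and a STAT-type match, encodes the adhesion molecule that leukocyte integrins bind. Its levels were 6.422, 20.9 and 32.93 CPM (lowest, median and highest) in B16-GFP, 42.82, 51.59 and 64.64 in B16-IFNA4, and 29.38, 44.26 and 60.06 in B16-IFNA9 tumors. B16-IFNA4 tumors lay above all controls, and the lowest B16-IFNA9 tumors reached into the control range. The log2 fold changes were 1.28 ± 0.18 (edgeR adjusted p = 3.44e-07) and 1.02 ± 0.18 (edgeR adjusted p = 1.89e-05).

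In all, 5 of the 7 genes (Nfkb1, Rel, Birc3, Traf1 and Icam1) had no overlap between B16-IFNA4 and B16-GFP tumors, beside 18.5% of all genes, 8.50% by being higher and 10.0% by being lower. For B16-IFNA9 against B16-GFP tumors it was 1 of 7, Traf1, beside 7.79% of all genes, 4.44% by being higher and 3.35% by being lower. In B16-GFP tumors tumor 7 was the lowest for 6 of the 7 genes, Relb being the exception. Without it, all 7 genes still passed in B16-IFNA4 and 5 still passed in B16-IFNA9 tumors.

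The next question was whether the interferon types differed from each other. The mean level of each of the 7 genes was higher in B16-IFNA4 than in B16-IFNA9 tumors, and 3 of 7 passed the test: Traf1 (log2 fold change, B16-IFNA9 minus B16-IFNA4, -0.76 ± 0.21, edgeR adjusted p = 0.0109), Relb (-0.56 ± 0.16, edgeR adjusted p = 0.0132) and Bcl3 (-0.66 ± 0.22, edgeR adjusted p = 0.0331). Of all genes 17.8% passed, 7.25% by being lower and 10.5% by being higher in B16-IFNA9 tumors. The other 4 genes had values of -0.37 ± 0.17 (Rel), -0.34 ± 0.16 (Birc3), -0.26 ± 0.17 (Icam1) and -0.20 ± 0.10 (Nfkb1), with edgeR adjusted p-values of 0.132, 0.149, 0.333 and 0.147.

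For none of the 7 were the interferon types without overlap, beside 2.83% of all genes (2.08% higher and 0.741% lower in B16-IFNA9 tumors). The count of 3 depended on the tumors fitted. Without B16-GFP tumor 7, or with only the B16-IFNA4 and B16-IFNA9 tumors in the fit, Nfkb1, Rel and Birc3 passed as well and the count was 6. Bcl3 no longer passed without any of B16-IFNA4 tumors 6, 7 or 10 or B16-IFNA9 tumors 2, 4, 7, 9 or 10, with edgeR adjusted p-values between 0.0505 and 0.0753, which left a count of 2. Thus the order of levels was B16-IFNA4, B16-IFNA9, B16-GFP for 6 of the genes. In the main fit Nfkb1, Rel, Birc3 and Icam1 were not told apart between the interferon types. Of these, Nfkb1, Rel and Birc3 were told apart in the other fits just named, and Icam1 was not. Rel also passed between the interferon types with a GC covariate (edgeR adjusted p = 0.0499). Relb was not told apart between B16-IFNA9 and B16-GFP unless a GC covariate was fitted. For Bcl3, B16-GFP and B16-IFNA9 tumors had means of 16.97 ± 7.064 and 16.24 ± 4.713 CPM (SD, n = 10).

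**Figure D2:**
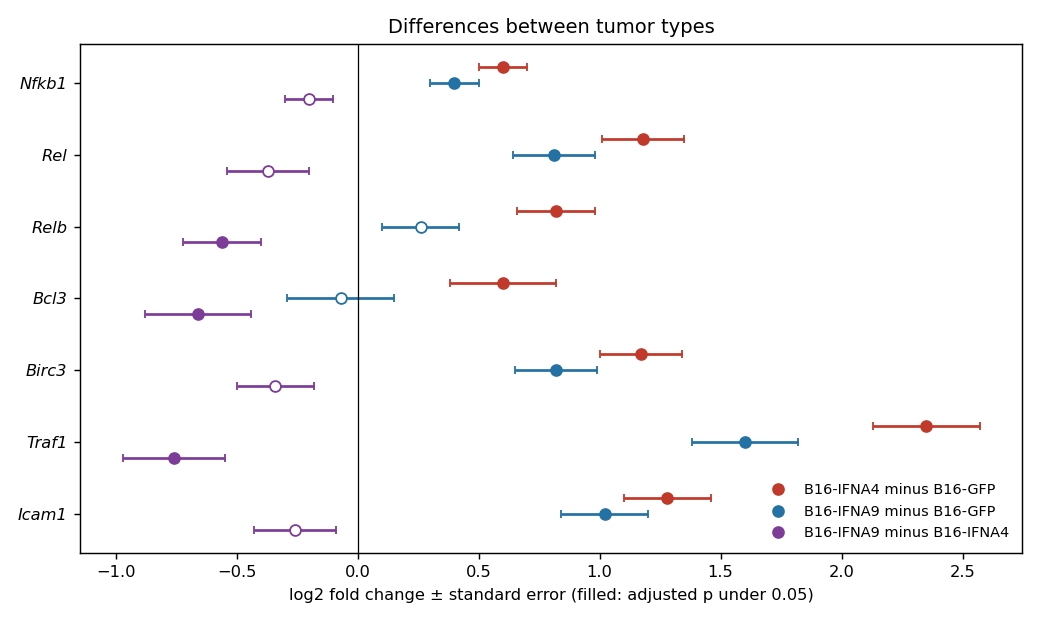
Log2 fold changes (horizontal axis) of the 7 genes with their standard errors, for B16-IFNA4 and B16-IFNA9 against B16-GFP tumors and for B16-IFNA9 against B16-IFNA4 tumors, with filled points for an adjusted p under 0.05. Traf1 has the largest values in each comparison, and Relb and Bcl3 lie near 0 in B16-IFNA9 against B16-GFP tumors.

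To compare levels between genes, CPM were divided by the exon length of each gene, merged over all its annotated transcripts. This length was 12061 bases for Nfkb1, 8819 for Traf1 and 2475 for Bcl3. A merged length can exceed that of the transcripts present, so the ranks below depend on the annotation. On this scale of CPM per kilobase, Nfkb1 was the most abundant of the 7 genes in B16-GFP tumors (7.948 ± 1.544, SD, n = 10), with Bcl3 within its spread (6.855 ± 2.854), and Traf1 was the least (1.06 ± 0.5255). By CPM not divided by length, the means of Nfkb1 and Bcl3 in these tumors were far apart, at 95.86 and 16.97. In B16-IFNA4 tumors Birc3 (13.95 ± 2.045), Nfkb1 (12.09 ± 0.9903) and Icam1 (11.85 ± 1.937) lay within about 1 SD of each other, and Traf1 (5.443 ± 1.26) and Relb (6.142 ± 1.337) were lowest.

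Rela, which encodes the p65 subunit, was not among the chosen genes. Per kilobase it had the highest mean of the 4 subunits measured in each type, at 14.66 ± 3.278, 17.67 ± 2.913 and 14.65 ± 3.194 CPM per kilobase in B16-GFP, B16-IFNA4 and B16-IFNA9 tumors. By CPM not divided by length, Nfkb1 was higher than Rela in each type, with means of 95.86, 145.8 and 126.6 against 45.04, 54.29 and 45.01. The order of these subunits thus rests on the exon lengths used. The log2 fold changes of Rela, 0.27 ± 0.14 and 0.00 ± 0.14 against B16-GFP, did not pass (edgeR adjusted p = 0.0828 and 0.995). Of the summed level of Nfkb1, Rela, Rel and Relb per length, Rela made up 47.86% ± 8.073 (SD, n = 10) in B16-GFP, 38.07% ± 4.284 in B16-IFNA4 and 38.94% ± 4.823 in B16-IFNA9 tumors. Rel made up 14.95% ± 6.031, 22.49% ± 4.261 and 21.68% ± 4.181, and the mean share of Nfkb1 was between 26.02% and 28.22%. When tumor 7 was left out, the B16-GFP shares were 46.29% ± 6.755 for Rela and 15.99% ± 5.361 for Rel (SD, n = 9). These shares are of mRNA from 4 of the 5 subunit genes, depend on the exon lengths used and were not tested.

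Whole tumors hold melanoma cells, leukocytes and stroma, and in such samples a change in how many cells of a type are present cannot be told apart from a change in RNA per cell. A leukocyte score, the mean log2 CPM of 10 pan-leukocyte genes, was 5.902 ± 0.525 (SD, n = 10, range 4.661 to 6.41) in B16-GFP, 7.261 ± 0.24 (6.822 to 7.658) in B16-IFNA4 and 6.932 ± 0.257 (6.459 to 7.201) in B16-IFNA9 tumors. The control mean was 6.04 ± 0.31 (SD, n = 9) without B16-GFP tumor 7. Both interferon types lay wholly above the controls. Of the 10 markers 9 rose and 1, Arhgdib, fell in B16-IFNA4 tumors, and 9 rose in B16-IFNA9 tumors. The summed level of the 10 markers was 727.1 to 1331 CPM in B16-GFP, 1579 to 3200 in B16-IFNA4 and 1211 to 2267 in B16-IFNA9 tumors. Ptprc, which encodes the leukocyte surface phosphatase CD45, was at 80.56 ± 29.45, 506.9 ± 140.1 and 354.3 ± 105.9 CPM.

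Other cell markers moved as well. All 5 NK cell markers rose in both interferon types, from summed levels of 3.657 to 24.62 CPM in B16-GFP to 84.97 to 266.1 in B16-IFNA4 and 50.1 to 173.6 in B16-IFNA9 tumors. Of 8 T cell markers, 8 rose in B16-IFNA4 and 7 in B16-IFNA9 tumors, from 7.492 to 63.55 CPM to 86.64 to 186.2 and 38.3 to 129.0. Of 9 macrophage and monocyte markers, the same 4, Ly6c2, Ccr2, Fcgr1 and Cd68, rose in both interferon types, and 2, Mrc1 and C1qc, fell in B16-IFNA4 tumors. The others, Csf1r, C1qa and C1qb among them, did not pass, and the list medians were -0.28 and -0.02. The summed levels were 518.3 to 2203, 1750 to 3078 and 1473 to 2546 CPM in B16-GFP, B16-IFNA4 and B16-IFNA9 tumors. Of 8 dendritic cell markers, 4 rose in B16-IFNA4, and 6 rose and 1, Fscn1, fell in B16-IFNA9 tumors, with sums of 40.94 to 116.9, 90.34 to 124.8 and 82.74 to 130.4 CPM.

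B cell markers summed to 0.7579 to 3.05 CPM in B16-GFP, 3.509 to 8.922 in B16-IFNA4 and 1.963 to 4.54 in B16-IFNA9 tumors, and of 2 tested 1, Pax5, rose in both interferon types (3.95 and 2.54). Neutrophil markers summed to 7.046 to 43.36, 38.03 to 77.13 and 21.1 to 40.58 CPM in the 3 types. Of 4 tested, Csf3r rose (2.01 and 1.23) and S100a8 and S100a9 fell in both interferon types. Of 7 endothelial markers, 5 (Pecam1, Cdh5, Tie1, Egfl7 and Emcn) fell in each interferon type, whereas Kdr rose in B16-IFNA4 tumors (log2 fold change 1.35 ± 0.16), and the sums were 199.2 to 479.2 CPM in B16-GFP, 256.9 to 362.5 in B16-IFNA4 and 129.6 to 243.9 in B16-IFNA9 tumors. Fibroblast (2837 to 12740 CPM), skeletal muscle (1266 to 13490) and keratinocyte markers (678.1 to 7183) varied widely between tumors. Of 5 fibroblast markers, Pdgfrb (0.41) and Col1a2 (0.49) rose in B16-IFNA4 and Pdgfra (0.54) in B16-IFNA9 tumors, and Pdgfrb was lower in B16-IFNA9 than in B16-IFNA4 tumors (-0.57). Of 3 keratinocyte markers, Krt5 (0.63) and Krt10 (0.91) rose in B16-IFNA4 tumors, and the 3 were between 0.19 and 0.47 in B16-IFNA9 tumors, where they did not pass. Of 4 muscle markers, Acta1 (-1.19) and Ckm (-0.98) fell in B16-IFNA9 tumors, and Acta1 (-1.16), Myh4 (-1.09) and Tnnt3 (-0.91) were lower in B16-IFNA9 than in B16-IFNA4 tumors. No list of markers had a gene at 3 counts or fewer in every tumor of a type. The part of these cell types in the changes of the 7 genes was not tested by sorting or single-cell data.

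Within each type, the 7 genes were set against the leukocyte score over the 10 tumors, which made 21 relations, and 12 had an adjusted p under 0.05 by permutation test (100000 resamples, two-sided, Benjamini-Hochberg over the 21). Icam1 followed the score in all 3 types. Its Pearson r was 0.95 in B16-GFP (permutation p = 0.00017, adjusted 0.00357, Spearman rho 0.92, p = 0.00052), 0.84 in B16-IFNA4 (permutation p = 0.00142, adjusted 0.0103, rho 0.84, p = 0.00345) and 0.78 in B16-IFNA9 tumors (permutation p = 0.00663, adjusted 0.0206, rho 0.85, p = 0.00277). Without the 2 tumors farthest from the median score, r was 0.96, 0.84 and 0.48, so the relation in B16-IFNA9 tumors rested in part on those tumors. With Ptprc alone in place of the score, r of Icam1 in B16-IFNA4 and B16-IFNA9 tumors was 0.479 and 0.624 (permutation test, adjusted p = 0.245 and 0.112). Birc3 followed the score with r of 0.84, 0.74 and 0.86 in B16-GFP, B16-IFNA4 and B16-IFNA9 tumors (permutation p = 0.00874, 0.0137 and 0.00147, adjusted 0.0206, 0.024 and 0.0103). Its rho was 0.59, 0.6 and 0.81 (permutation p = 0.0804, 0.0736 and 0.00742), and r without the farthest tumors 0.41, 0.57 and 0.64.

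For Relb and Bcl3 the relations in the interferon types did not pass, and the difference from Icam1 was not tested. Relb had r of 0.66 in B16-GFP tumors (permutation p = 0.0427, adjusted 0.0621, rho 0.89, p = 0.0011, r 0.91 without the farthest tumors), but 0.14 in B16-IFNA4 (permutation p = 0.702, adjusted 0.737, rho 0.15, p = 0.683) and 0.05 in B16-IFNA9 tumors (permutation p = 0.886, adjusted 0.886, rho 0.15, p = 0.681). Without the farthest tumors the latter values of r were 0.48 and 0.26. Bcl3 had r of 0.73 (permutation p = 0.00931, adjusted 0.0206, rho 0.85, p = 0.00301), 0.25 (permutation p = 0.488, adjusted 0.54, rho 0.45, p = 0.193) and 0.35 (permutation p = 0.32, adjusted 0.374, rho 0.5, p = 0.144) in the 3 types, and 0.87, 0.50 and 0.23 without the farthest tumors. Rel had r of 0.62 in B16-IFNA4 (permutation p = 0.0579, adjusted 0.0715, rho 0.45, p = 0.193, r 0.13 without the farthest tumors) and 0.76 in B16-IFNA9 tumors (permutation p = 0.00745, adjusted 0.0206, rho 0.6, p = 0.0727, r 0.46 without them). Its relation in B16-GFP tumors (r 0.76, permutation p = 0.0443, adjusted 0.0621, rho 0.41, p = 0.247) rested on B16-GFP tumors 7 and 2, without which r was -0.11. With Ptprc alone in place of the score, however, r of Rel was 0.938, 0.843 and 0.899 in B16-GFP, B16-IFNA4 and B16-IFNA9 tumors (permutation test, adjusted p = 0.00299, 0.00798 and 0.00299). The r of Nfkb1 was 0.86, 0.66 and 0.77 in the 3 types (permutation p = 0.0049, 0.0375 and 0.01, adjusted 0.0206, 0.0607 and 0.0206), and that of Traf1 0.81, 0.83 and 0.64 (permutation p = 0.0108, 0.00325 and 0.0482, adjusted 0.0206, 0.0171 and 0.0633). Without the 2 farthest tumors they were 0.47, 0.85 and 0.38 for Nfkb1 and 0.61, 0.88 and 0.6 for Traf1. Leaving out only tumor 7, r in B16-GFP tumors was 0.85 for Icam1, 0.74 for Relb, 0.58 for Nfkb1, 0.53 for Bcl3, 0.48 for Birc3, 0.44 for Traf1 and 0.08 for Rel (n = 9, given with no test).

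**Figure D3:**
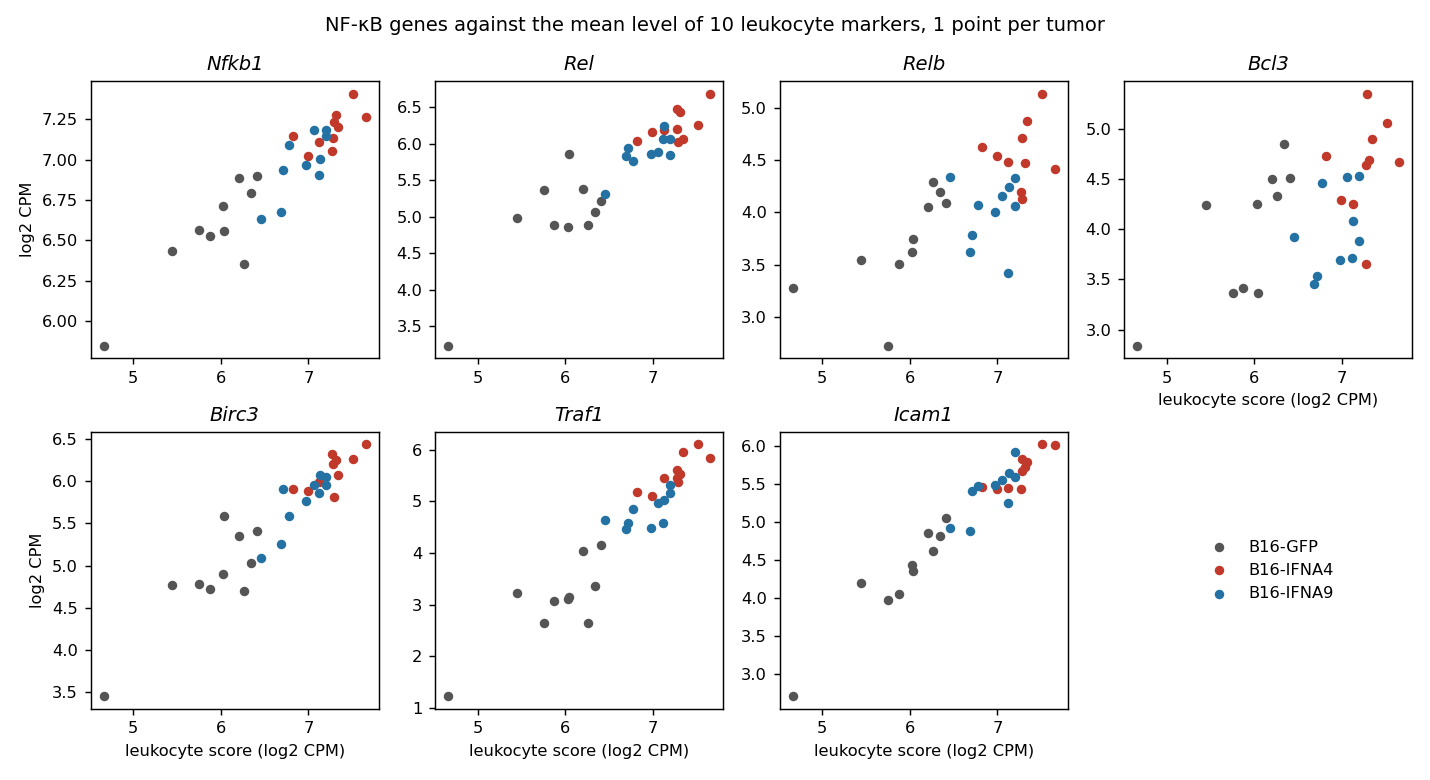
Log2 CPM of each of the 7 genes (vertical axes) against the leukocyte score (horizontal axes, mean log2 CPM of 10 markers), with 1 point per tumor colored by type. The tumor at the lower left, with a score of 4.661, is B16-GFP tumor 7, and Icam1 has the closest relation within B16-GFP tumors (r 0.95).

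With the leukocyte score as a covariate in the fit, 1 of the 7 genes passed in B16-IFNA4 against B16-GFP tumors. It was Traf1 (log2 fold change 0.90 ± 0.28, edgeR adjusted p = 0.0435). Icam1 was then at -0.11 ± 0.16, Birc3 at -0.04 ± 0.20 and Nfkb1 at -0.05 ± 0.12 (edgeR adjusted p = 0.797, 0.953 and 0.885). In B16-IFNA9 against B16-GFP tumors the count by edgeR was 0, with 2 of 7 at an unadjusted p under 0.05, namely Bcl3 at -0.82 ± 0.29 and Traf1 at 0.53 ± 0.23 (edgeR adjusted p = 0.0715 and 0.151). The same fit called 7.89% and 9.96% of all genes in these comparisons, so its loss of calls was general. In B16-IFNA9 against B16-IFNA4 tumors the count of the 7 genes went from 3 to 0 by edgeR (2 at an unadjusted p under 0.05), while 12.8% of all genes were called, beside 17.8% without the covariate. Without B16-GFP tumor 7, an alternative chosen after seeing the data, Traf1 passed in all 3 comparisons of this fit (log2 fold changes 1.16 ± 0.30, 0.70 ± 0.24 and -0.46 ± 0.15, edgeR adjusted p = 0.0118, 0.0493 and 0.0383), and it was the 1 gene of the 7 to do so in each, beside 10.0%, 12.7% and 14.2% of all genes. Rel was then at 0.57 ± 0.25 and 0.32 ± 0.20 against B16-GFP (edgeR adjusted p = 0.148 and 0.289), and Bcl3 at -0.72 ± 0.32 in B16-IFNA9 tumors (edgeR adjusted p = 0.129). Because the scores of the controls and of the interferon types did not overlap, these values rest on carrying the slope within types beyond the tumors measured. The log2 level minus the score, a description with no fit, was the same in the 3 types to within 1 SD for Icam1 (-1.60 ± 0.22, -1.58 ± 0.13 and -1.52 ± 0.20) and for Traf1 went from -2.84 ± 0.50 in B16-GFP to -1.71 ± 0.18 in B16-IFNA4 and -2.13 ± 0.24 in B16-IFNA9 tumors. It went the other way for Nfkb1 (0.66 ± 0.30, -0.08 ± 0.18 and 0.04 ± 0.16), Relb (-2.20 ± 0.42, -2.71 ± 0.36 and -2.93 ± 0.39) and Bcl3 (-1.93 ± 0.45, -2.64 ± 0.47 and -2.95 ± 0.40), and for Rel and Birc3 the means of the 3 types lay within the SD of B16-GFP tumors of each other. Without tumor 7 the B16-GFP means of the 7 genes were 0.60 for Nfkb1, -0.87 for Rel, -2.29 for Relb, -1.95 for Bcl3, -1.01 for Birc3, -2.77 for Traf1 and -1.56 for Icam1.

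The 7 genes did not vary together as 1 group. After the mean of each type was subtracted, Pearson's r of log2 CPM over the 30 tumors was 0.90 for Rel with Birc3, 0.90 for Nfkb1 with Icam1 and 0.71 for Relb with Bcl3. For Rel with Relb it was 0.05, and for Rel with Bcl3 0.19. Without B16-GFP tumor 7 the same values were 0.81, 0.81, 0.69, -0.25 and -0.30, and that of Rel with Icam1 went from 0.69 to 0.25. The points share libraries and depth, and the values are descriptions.

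**Figure D4:**
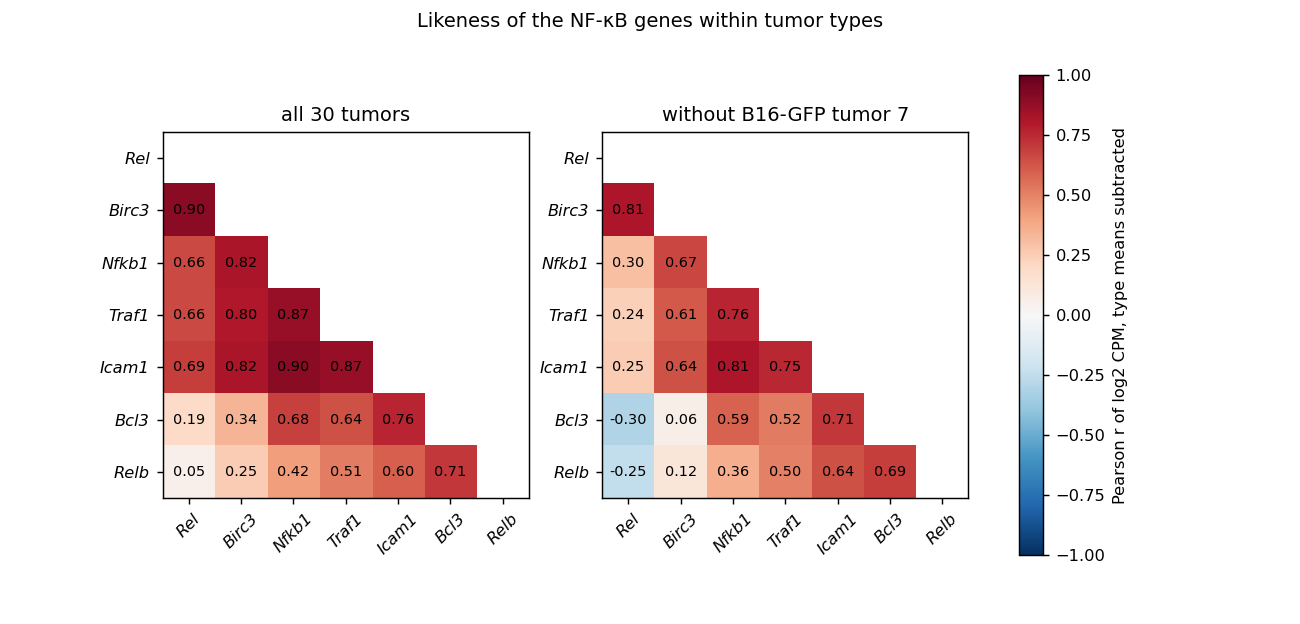
Pearson's r of log2 CPM between the 7 genes after subtraction of the type means, over all 30 tumors on the left and without B16-GFP tumor 7 on the right. Rel pairs closely with Birc3 (0.90 and 0.81), Relb with Bcl3 (0.71 and 0.69), and Rel has values below 0 with Relb and Bcl3 on the right.

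The genes most like each member by the same measure also differed. Those for Nfkb1 were Adam8 (r 0.92), Pik3r5 (0.90) and Nod1 (0.89). Those for Rel were Psd3 (0.95), Zfp182 (0.95) and Bach1 (0.94), and for Birc3 Frmd4b (0.93), Aim2 (0.92) and 9930111J21Rik2 (0.92). Relb was most like Crip1 (0.88), Mvp (0.87) and Sh3tc1 (0.87), and Bcl3 most like Junb (0.91), Acap3 (0.88) and Ralgds (0.88). For Traf1 they were Il10ra (0.92), Myo1g (0.90) and Pik3r5 (0.90), and for Icam1 Clic1 (0.95), Myo1g (0.94) and Irf5 (0.94). Without B16-GFP tumor 7 these values fell no lower than 0.80.

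Base composition also differed between the sets of most alike genes. The 100 genes most like Rel had a median GC content of 44.66% over their exons and those most like Birc3 46.91%, beside 49.45% over all genes. Those most like Relb (57.86%) and Bcl3 (57.98%) were richer in GC, as were those of Nfkb1 (53.61%), Traf1 (54.04%) and Icam1 (54.15%). The GC content of the gene itself was 42.49% for Rel, 46.58% for Birc3, 56.77% for Relb and 62.65% for Bcl3, but Nfkb1, at 44.93%, was poorer in GC than the genes most like it. A GC contrast, the mean log2 CPM of the 10% of genes richest in GC minus that of the 10% poorest, was -0.40 ± 0.416 (SD, n = 10) in B16-GFP, -0.682 ± 0.384 in B16-IFNA4 and -0.799 ± 0.388 in B16-IFNA9 tumors. With this contrast as a covariate, an alternative chosen after seeing the data, Relb rose in B16-IFNA9 tumors as well (log2 fold change 0.56 ± 0.12, edgeR adjusted p = 0.00034), Bcl3 was at 0.34 ± 0.17 there (edgeR adjusted p = 0.0979), and the counts of the 7 genes in the 3 comparisons were 7, 6 and 4, beside 10981, 8893 and 3551 of 15926 genes in the same fit.

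Further genes of the pathway were described by lists of known roles, with no test of any list. Their counts stand beside 65.4% of all genes called in B16-IFNA4 against B16-GFP (31.3% higher, 34.1% lower), 55.7% in B16-IFNA9 against B16-GFP (26.9% and 28.9%) and 17.8% in B16-IFNA9 against B16-IFNA4 tumors (10.5% and 7.25%). Nfkbid and Nfkbiz, which encode nuclear IκB proteins like Bcl3, rose in both interferon types, Nfkbid by log2 fold changes of 1.77 and 1.16 in B16-IFNA4 and B16-IFNA9 tumors and Nfkbiz by 1.16 and 0.60. They were the 2 genes of 4 tested in their list to pass, beside Rela and Nfkbib, which encodes a cytoplasmic IκB (-0.01 and -0.17). The list was called no more often than all genes in either direction (65.4% and 55.7%). It rose more often than all genes, of which 31.3% and 26.9% rose. Both were lower in B16-IFNA9 than in B16-IFNA4 tumors (-0.61 and -0.56). The list medians were 0.72 and 0.30 against B16-GFP.

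Of 11 inhibitors tested, 11 rose in B16-IFNA4 tumors (median 0.62) and 10 in B16-IFNA9 tumors (median 0.45), beside 31.3% and 26.9% of all genes that rose. Tnip3, whose product binds the deubiquitinase A20, rose by 1.37 and 1.44, and Irak3, which blocks receptor kinases of the interleukin 1 and Toll-like pathways, by 1.14 and 0.93. Tnfaip3, which encodes A20, rose by 1.10 and 0.55. N4bp1 was the 1 inhibitor to differ between the interferon types, at -0.44 in B16-IFNA9 against B16-IFNA4 tumors.

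Of 18 kinases and adaptors, 10 rose in B16-IFNA4 tumors (median 0.38), and 11 rose and 1 fell in B16-IFNA9 tumors (median 0.33). The share called in either direction was below that of all genes in B16-IFNA4 (65.4%) and above it in B16-IFNA9 tumors (55.7%), while 31.3% and 26.9% of all genes rose. Malt1, a paracaspase that acts downstream of antigen receptors, rose by 1.27 and 1.10, and Myd88, the adaptor of Toll-like receptors, by 1.12 and 0.49. Ikbke, which encodes a kinase related to the IκB kinases, rose by 0.84 and 0.88. The adaptor gene Bcl10 was at -0.01 in B16-IFNA4 and fell in B16-IFNA9 tumors (-0.19 ± 0.07, edgeR adjusted p = 0.0247). Myd88 (-0.63) and Ikbkb (-0.21), which encodes an IκB kinase, were the 2 of 18 called in B16-IFNA9 against B16-IFNA4 tumors, both lower. This is a smaller share than the 17.8% of all genes called in either direction, but a larger one than the 7.25% called lower.

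Of 14 receptors, 10 rose and 1 fell in each interferon type, with medians of 1.45 and 1.07, beside 31.3% and 26.9% of all genes that rose and 34.1% and 28.9% that fell. Tlr9, a receptor for DNA, rose by 3.80 and 2.94 and Il18r1, the receptor of interleukin 18, by 2.54 and 1.86. Ltbr, the lymphotoxin β receptor, fell by 0.51 and 0.47. In B16-IFNA9 against B16-IFNA4 tumors 4 receptors were lower, beside 7.25% of all genes, namely Tlr9 (-0.85), Tlr7 (-0.72), Tnfrsf11a (-0.55) and Tnfrsf1b (-0.52).

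Of 8 ligands tested, 8 rose in B16-IFNA4 tumors (median 1.09) and 6 in B16-IFNA9 tumors (median 0.80), beside 31.3% and 26.9% of all genes that rose. Ltb, which encodes lymphotoxin β, rose by 3.03 and 2.25, Tnf by 2.63 and 1.68 and Lta by 2.50 and 2.66. Tnf (-0.95), Ltb (-0.78) and Il18 (-0.37) were lower in B16-IFNA9 than in B16-IFNA4 tumors.

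Of 26 other targets, 16 rose and 4 fell in B16-IFNA4 (median 0.54), and 13 rose and 4 fell in B16-IFNA9 tumors (median 0.36). Of all genes 65.4% and 55.7% were called in these comparisons, 31.3% and 26.9% by rising. The largest rises were of the cytokine genes Il15 (2.09) and Csf1 (1.71) in B16-IFNA4, and of Csf2 (2.05) and the chemokine gene Ccl20 (1.68) in B16-IFNA9 tumors. The neutrophil chemokine gene Cxcl5 fell in both (-1.60 and -1.11), F3, which encodes tissue factor, was the next lowest in B16-IFNA4 (-0.62) and Cxcl2 in B16-IFNA9 tumors (-0.94). The other falls were of Ier3 (-0.48) and Marcksl1 (-0.46) in B16-IFNA4, and of F3 (-0.40) and Marcksl1 (-0.33) in B16-IFNA9 tumors. Between the interferon types 2 targets were higher in B16-IFNA9, Ccl22 (1.09) and Ier3 (0.43), and 6 were lower, led by Sele (-1.15), which encodes E-selectin of endothelium, and Il6 (-0.71). The 3 Bcl2a1 genes in this list are near-identical copies whose reads could be split between them.

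**Figure D5:**
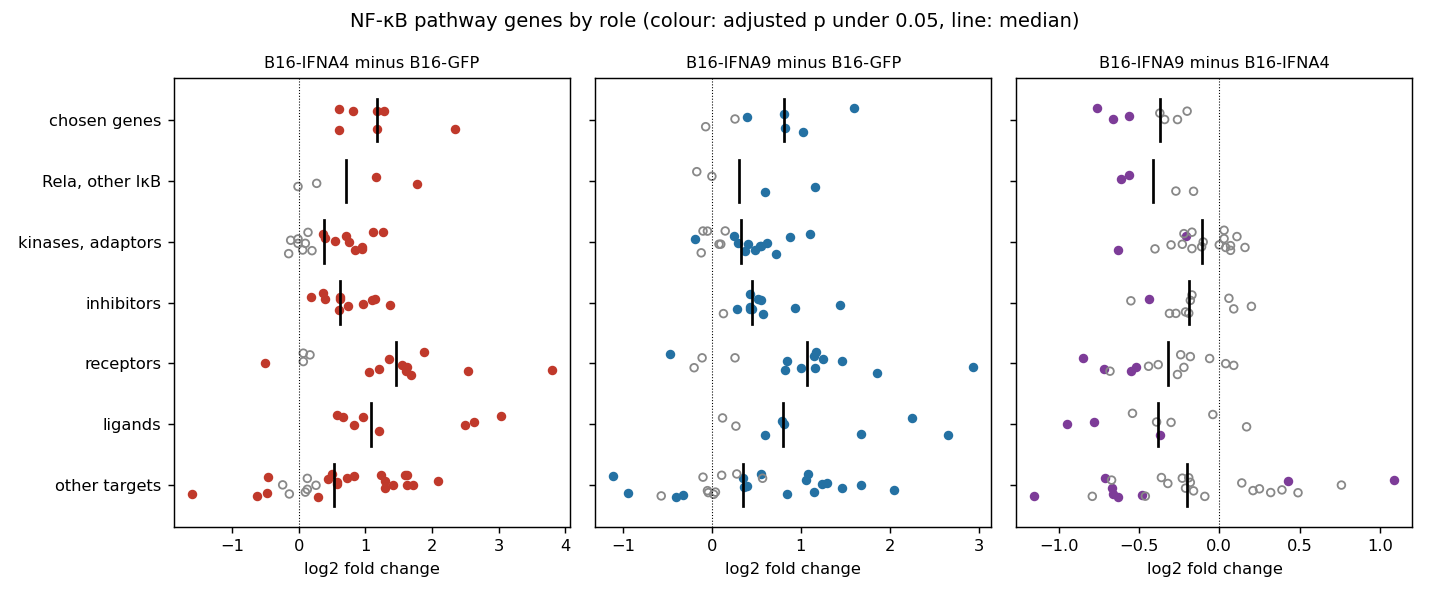
Log2 fold changes (horizontal axes) of the 7 chosen genes and of the genes in 6 lists of pathway roles in the 3 comparisons, filled in color for an adjusted p under 0.05 and open otherwise, with a line at each median. Most inhibitors, receptors and ligands lie above 0 in both comparisons with B16-GFP tumors, and Tlr9 (3.80) is the highest point.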

How the data were processed

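RNA of 30 whole tumors was measured by RNA-seq. Per the labels and the study's methods, stranded mRNA libraries were read as single ends of 50 bases, checked with FastQC 0.11.3, aligned with HISAT2 2.0.4 and counted per gene. The submitters' notes name mm10 and the methods a later mouse build. The annotation and the strand setting are not given in the sources used here. The authors deposited raw counts without normalization. Symbols, lengths and coordinates came from GENCODE M21 (GRCm38), in which 39495 of 39676 identifiers were found, and promoters from RefSeq.

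Counts were analyzed in R 4.3.3 with edgeR 4.0.16 (TMM, quasi-likelihood, all 30 tumors, mean of at least 10 counts, adjusted p under 0.05 by Benjamini-Hochberg over 15926 genes). The common biological coefficient of variation was 0.281. Log2 CPM took a prior count of 2. Correlations and plots used Python 3.11.15 with scipy 1.17.1 and matplotlib 3.10.9. The fit was tested on simulated counts. No columns were identical. The alternatives were other scalings and filters, DESeq2 1.42.0, only the types compared, a replicate block, leaving out each tumor and a leukocyte covariate. A GC covariate, and the leukocyte covariate without B16-GFP tumor 7, were added after seeing the data.

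The genes and lists were chosen with earlier results of these data known, so no p was adjusted over them alone. Named genes are the members, up to 2 largest rises and falls per list and comparison among genes past the threshold, the 3 genes most like each member, Ptprc and the transgenes. Other genes in the text, among them Ikbkb, Nfkbib, Il18, Ier3, Marcksl1 and single cell type markers, were named after their values were seen. P-values measure the spread between these tumors, and each type is 1 cell line. A gene was left out of the kinase and adaptor list and is not reported here. The counts of that list are over the others.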

Additional observations from a re-analysis of the deposited data

Results flagged for a closer look

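In 21 groups of 10 tumors (7 genes in 3 types), 6 had a lowest tumor whose gap to the next exceeded the critical value of Dixon's test, where chance alone gives about 1 in 20, or 1.05. B16-GFP tumor 7 was the lowest for 5 of them, with log2 CPM of 5.85 for Nfkb1 (next lowest tumor 6.35), 3.23 for Rel (4.86), 3.45 for Birc3 (4.69), 1.23 for Traf1 (2.64) and 2.71 for Icam1 (3.97). This tumor also had the lowest leukocyte score (4.661), the lowest scaling factor (0.768) and the lowest total count (14598517) of all tumors. The part of these in its low values was not tested. B16-IFNA9 tumor 5 was low for Rel, at 5.31 (next lowest tumor 5.77), and had the lowest leukocyte score of its type (6.459).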

How the results depend on the processing

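The counts of 7 and 5 genes called against B16-GFP tumors were unchanged under DESeq2, DESeq2 size factors, library totals, other filters and only the 2 types compared, and leaving out each tumor gave 7 to 7 and 5 to 5. In B16-IFNA9 against B16-IFNA4 tumors the count was 2 to 6 when each tumor was left out, and 6 with only those types fitted. Over all genes, leaving out tumors gave 9941 to 10554, 8407 to 9194 and 2098 to 3797 calls, and the fit of only the 2 types gave 4338 in B16-IFNA9 against B16-IFNA4. With library totals 53.2% of calls in B16-IFNA4 against B16-GFP were higher, beside 47.8% with TMM, 58.3% of calls in B16-IFNA9 against B16-GFP were higher, beside 48.2%, and in B16-IFNA9 against B16-IFNA4 68.9% beside 59.3%. The median of all genes in these comparisons was 0.086, 0.097 and 0.017 with library totals, beside 0.009, -0.003 and -0.006 with TMM. Bcl3 in B16-IFNA9 against B16-GFP tumors changed sign, to 0.028 with library totals, 0.339 with the GC covariate and 0.049 without B16-GFP tumor 9, in a range of -0.149 to 0.049 when each tumor was left out.

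With the leukocyte covariate the counts of the 7 genes called were 1, 0 and 0 (2 and 2 at an unadjusted p under 0.05 by edgeR in the latter comparisons), and 1257, 1586 and 2039 genes were called in all. Signs changed in B16-IFNA4 against B16-GFP for Nfkb1 (-0.052), Bcl3 (-0.412), Birc3 (-0.041) and Icam1 (-0.111), in B16-IFNA9 against B16-GFP for Nfkb1 (-0.097), Relb (-0.172), Birc3 (-0.096) and Icam1 (-0.017), and in B16-IFNA9 against B16-IFNA4 for Icam1 (0.094). Without B16-GFP tumor 7 in this fit, chosen after seeing the data, the counts were 1, 1 and 1 (Traf1), with 1595, 2022 and 2261 genes in all, and the signs changed for Bcl3 (-0.258), for Nfkb1 (-0.034) and Relb (-0.203), and for Icam1 (0.032), in the same order of comparisons. The cause was not tested.

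Of the 21 relations with the leukocyte score 12 passed, and 6 without the 2 farthest tumors, where fewer tumors enter. With library totals 14 passed, among them Rel (0.843) and Relb (0.737) in B16-GFP (permutation test, adjusted p = 0.0351 and 0.0274). The 6 include Nfkb1 in B16-IFNA4 and Relb in B16-GFP, which were not among the 12, and Rel in B16-GFP was at -0.109. With Ptprc in place of the score 9 passed, and Icam1 in B16-IFNA4 and B16-IFNA9, Nfkb1 in B16-IFNA9, Traf1 in B16-IFNA4 and Bcl3 in B16-GFP no longer did, whereas Rel in B16-GFP (0.938) and B16-IFNA4 (0.843) then passed. There r was -0.346 and -0.229 for Relb and -0.216 and -0.00023 for Bcl3 in B16-IFNA4 and B16-IFNA9 tumors.

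Replicate numbers did not pair the tumors: same-number correlations ran from -0.267 to 0.302, and 3 of 30 tumors were closest to their own number. With a replicate block the counts of genes called were 7, 5 and 2, as Bcl3 in B16-IFNA9 against B16-IFNA4 (-0.685) had an edgeR adjusted p of 0.0531, and 10249, 8626 and 2538 genes were called in all. At 25 counts in its lowest tumor, Traf1 had the least depth of the 7 genes.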
